A study of Mus musculus with 3 samples.

Results

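Skeletal muscle holds motor and sensory nerve fibres, and the RNA of their Schwann cells is part of any extract of whole muscle. The genes described here are 8 markers of Schwann cells and of peripheral myelin (Mbp, Ncmap, Pmp22, S100b, Prx, Mag, Mal and Sox10). They were chosen by symbol, and each stood on 1 of the 24481 gene rows. The study's title names leaf extracts of the dwarf bamboo Sasa quelpaertensis and fatigue. All mice were of the outbred ICR stock at postnatal day 42, and the groups were exercise with a treatment labelled SQH, an exercise control and a control, with 1 library each. The labels do not say which muscle was taken, how the mice were exercised, what the SQH dose was or how many mice a library holds. There are no replicates, so differences are given without a replicate error and without a p-value.

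Schwann cells wrap axons, and the myelinating ones lay down a spiral of compacted membrane that insulates the axon and speeds conduction. The transcription factor SOX10 is needed throughout the Schwann cell lineage and, with EGR2, switches on the myelin genes. The proteins MBP and PMP22 are parts of compact peripheral myelin, while periaxin links the outer membrane of the sheath to its surroundings and MAG lies at the inner membrane facing the axon.

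The libraries were sequenced from the 3′ ends of transcripts, beside the poly(A) tail, so read numbers do not grow with transcript length. The values deposited by the authors are log2 levels. From the spacing of their low values the libraries held about 12.4 M reads in exercise plus SQH, 8.12 M in the exercise control and 10.8 M in the control. Read numbers of genes are likewise approximate. The ranges given in brackets are 95% counting intervals from those reads. Reads without molecular identifiers are not independent molecules, so the intervals cover counting error only and not the spread between mice or library preparations. A gene was called higher or lower when it differed by at least 2-fold (1 on the log2 scale) and the mean of its linear values in the 3 libraries reached 66.5, the median of the 15714 rows above 0 in at least 1 library. This minimum left 7857 rows. Of the 8 genes, 4 passed it (Mbp, Ncmap, Pmp22 and S100b) and 4 did not (Prx, Mag, Mal and Sox10). Prx was just short of it, with a mean of 63.5. The 4 that passed would also have reached it on the mean of the exercise plus SQH and control libraries alone, Ncmap by the least at 69.7.

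The labelled tissue was checked against its markers. All 8 general markers of skeletal muscle passed the minimum, from Cacna1s at 12.15 to 12.43 up to Acta1 at 18.34 to 19.01. Of 7 markers of the oligodendrocyte, which makes the myelin of the central nervous system, Mog, Opalin, Ermn, Olig2 and Klk6 were listed at 0 in all 3 libraries, and Mobp in the exercise control and the control. Aspa, which encodes aspartoacylase, gave about 68 reads in exercise plus SQH, 39 in the exercise control and 41 in the control.

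Mbp encodes myelin basic protein, which sticks the cytoplasmic faces of the membrane together. Its log2 value was 6.83 in exercise plus SQH, 8.63 in the exercise control and 6.78 in the control, from about 149, 332 and 117 reads. The exercise control library stood alone and the other libraries lay within counting error of each other. Mbp was 3.60-fold higher in exercise control than in control muscle (log2 difference 1.85 [1.54 to 2.16]). It was lower in exercise plus SQH than in the exercise control by a log2 difference of -1.79 [-2.08 to -1.51].

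Ncmap encodes the non-compact myelin-associated protein, a small membrane protein of peripheral myelin. Its log2 values were 6.29 in exercise plus SQH, 8.34 in the exercise control and 5.93 in the control, from about 102, 273 and 65 reads. Among the 4 genes past the minimum it had the widest gap between exercise control and control, 5.32-fold (log2 difference 2.41 [2.02 to 2.82]). Of the 7857 rows, 0.089% lay further above the control. Exercise plus SQH differed from the exercise control by -2.05 [-2.40 to -1.72].

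Pmp22 encodes peripheral myelin protein 22, whose extra copy in people causes Charcot-Marie-Tooth neuropathy, and it is also transcribed in fibroblasts and other cells. It stood at 8.65 in exercise plus SQH, 9.66 in the exercise control and 8.65 in the control, from about 525, 681 and 427 reads. Its difference between exercise control and control was 1.01 [0.84 to 1.19], just past the size of a call. The difference between exercise plus SQH and exercise control was -1.01 [-1.18 to -0.84], and both intervals reach below 2-fold. Adding 10 to the linear values before taking logs ended both calls.

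S100b encodes a calcium-binding protein that marks Schwann cells and is found in adipocytes too. Its log2 value was 6.34 in exercise plus SQH, 7.65 in the exercise control and 6.55 in the control, from about 106, 169 and 100 reads. The exercise control differed from the control by 1.09 [0.73 to 1.47], and exercise plus SQH from the exercise control by -1.31 [-1.67 to -0.95]. These differences were called as well, and their counting intervals reach below 2-fold.

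**Figure D1:**
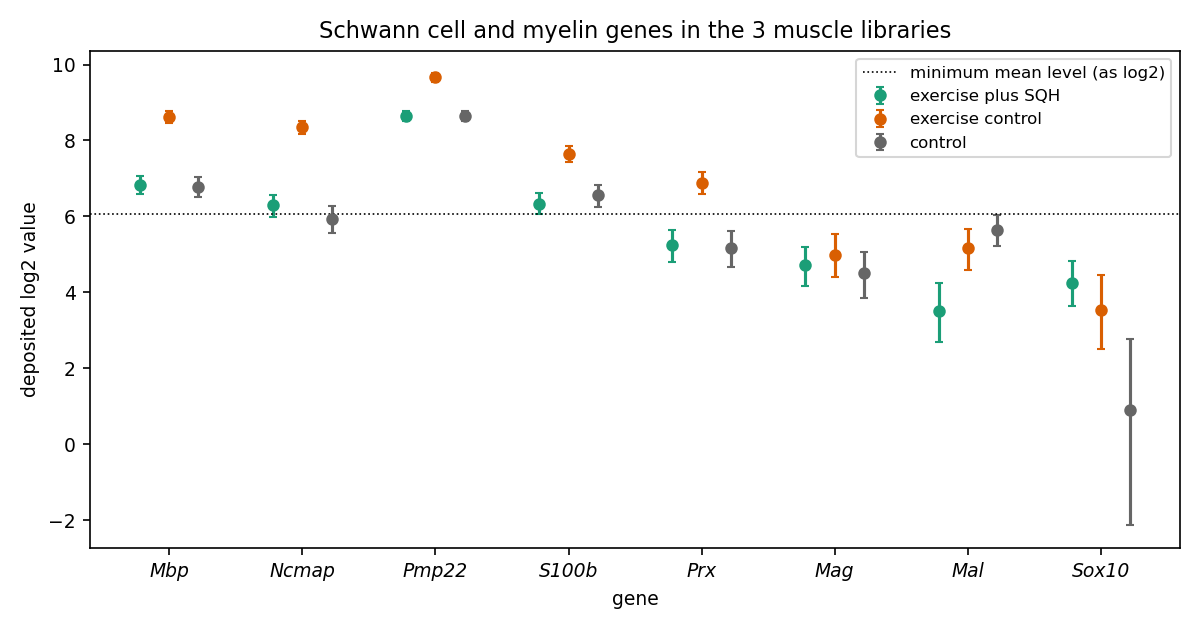
Deposited log2 value of each gene (y axis) in exercise plus SQH, exercise control and control muscle, 1 library each, with 95% counting intervals from approximate reads; the dotted line marks the minimum mean level, 66.5 on the linear scale. Mbp, Ncmap, Pmp22, S100b and Prx are highest in the exercise control library, whereas Mal is highest in the control and Sox10 in exercise plus SQH.

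Prx encodes periaxin and lay under the minimum, so it was not called. It followed the same course, at 5.24 in exercise plus SQH, 6.87 in the exercise control and 5.16 in the control, from about 49, 99 and 38 reads. The exercise control was 3.28-fold above the control (1.71 [1.17 to 2.30]), and exercise plus SQH differed from the exercise control by -1.63 [-2.17 to -1.14].

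Mag encodes the myelin-associated glycoprotein. It stood at 4.72 in exercise plus SQH, 4.99 in the exercise control and 4.50 in the control, from about 34, 27 and 24 reads. The order of the libraries was that of Prx, but the 3 values lay within counting error of each other. The exercise control minus the control gave 0.50 [-0.34 to 1.37], an interval that lies wholly below those of Mbp and Ncmap and overlaps those of Pmp22, S100b and Prx.

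Mal encodes a proteolipid of myelin rafts that is also made in epithelial cells and T cells. It was at 3.52 in exercise plus SQH, 5.16 in the exercise control and 5.64 in the control, from about 15, 30 and 53 reads. It was the 1 gene of the 8 that was lower in exercise control than in control muscle, by a difference within counting error (-0.48 [-1.18 to 0.19]). Its lowest library was exercise plus SQH, at -2.12 [-3.05 to -1.27] against the control and -1.64 [-2.63 to -0.69] against the exercise control. Of the T cell markers Cd3e, Cd3g, Cd2, Cd8a and Lck were listed at 0 in all 3 libraries. The 8 T cell markers summed to linear values of 15.5, 20.03 and 14.1 in exercise plus SQH, exercise control and control, of which Thy1, present in other cells too, made up the most.

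Sox10 encodes the transcription factor of the lineage. It gave the fewest reads of the 8 over the 3 libraries together, with a log2 value of 4.25 in exercise plus SQH, 3.55 in the exercise control and 0.90 in the control, from about 25, 10 and 2 reads. The exercise control differed from the control by 2.65 [0.43 to 5.89] and exercise plus SQH from the control by 3.35 [1.35 to 6.47]. With 2 reads in the control, the size of these differences is poorly fixed. Exercise plus SQH and the exercise control lay within counting error of each other (0.70 [-0.42 to 1.91]). Egr2, the partner factor of SOX10 in myelination and also an early response gene, had a like order at similarly low depth, with about 30, 7 and 2 reads in exercise plus SQH, exercise control and control. It was picked out after its values were seen. Sox10 is also expressed in melanocytes. Of the melanocyte markers, Tyr was listed at 0 in all 3 libraries, while Pmel gave about 32, 6 and 45 reads and Dct about 14, 14 and 22 in exercise plus SQH, exercise control and control.

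In the mouse build GRCm38, with the GENCODE M21 annotation, Ncmap lies on chromosome 4 from 135369576 to 135398227 (minus strand), Pmp22 on chromosome 11 from 63128982 to 63159547 (plus) and S100b on chromosome 10 from 76253853 to 76261159 (plus). Prx lies on chromosome 7 from 27499324 to 27520214 (plus), Mag on chromosome 7 from 30899176 to 30914873 (minus), Mal on chromosome 2 from 127633226 to 127656695 (minus) and Sox10 on chromosome 15 from 79154908 to 79165240 (minus). All 8 are protein-coding. Of them, Prx shares exonic bases with another annotated gene, 300 bases with the antisense gene Gm15541. Since the way strands were counted is not given, reads from that stretch cannot be assigned.

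Promoter windows from 250 bases before to 50 bases after the start site were found in RefSeq (GRCm38.p6) for 6 of the 8 genes, 12 windows in all. None was found for Mbp or Sox10. They were searched on both strands for the SOX core letters ACAAAG or ACAATG and for the EGR letters GCGNGGGCG. Of all 32851 mouse promoter windows, 28.6% hold the SOX letters and 5.55% the EGR letters. Among the 12 windows the SOX letters stood in 2, both of Mag and overlapping each other, and the EGR letters in 0. The windows below are those of Ncmap and Prx, which were more than 3-fold above the control in the exercise control, and of Mag, which holds the SOX letters. Capitals mark the SOX letters, read on the opposite strand as CTTTGT, which begin 126 bases before the start site of Mag. A match is not a binding site, and these letters may lie outside the windows.
Ncmap, chr4:135398178-135398477, minus strand: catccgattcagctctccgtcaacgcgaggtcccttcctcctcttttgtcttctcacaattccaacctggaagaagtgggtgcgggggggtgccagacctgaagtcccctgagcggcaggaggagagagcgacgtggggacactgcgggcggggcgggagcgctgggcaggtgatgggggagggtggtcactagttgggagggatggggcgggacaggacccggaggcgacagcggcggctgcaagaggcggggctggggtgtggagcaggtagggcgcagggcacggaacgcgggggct
Prx, chr7:27499074-27499373, plus strand: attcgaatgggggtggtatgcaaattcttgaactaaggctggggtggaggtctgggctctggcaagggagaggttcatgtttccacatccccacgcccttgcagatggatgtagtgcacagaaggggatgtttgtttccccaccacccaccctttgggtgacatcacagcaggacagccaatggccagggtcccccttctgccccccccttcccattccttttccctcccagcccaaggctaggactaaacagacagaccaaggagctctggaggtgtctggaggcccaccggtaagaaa
Mag, chr7:30914814-30915113, minus strand: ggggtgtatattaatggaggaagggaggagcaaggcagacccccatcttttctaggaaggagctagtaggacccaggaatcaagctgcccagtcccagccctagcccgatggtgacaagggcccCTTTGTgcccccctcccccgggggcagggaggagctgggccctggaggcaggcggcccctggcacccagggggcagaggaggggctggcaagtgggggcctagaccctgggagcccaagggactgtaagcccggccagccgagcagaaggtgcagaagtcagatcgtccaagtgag

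Exercise control and control muscle were compared for their nerve content, so far as these transcripts reflect it. All 4 genes past the minimum were called higher in the exercise control, where 2.95% of all 7857 rows were. Their median log2 difference was 1.47, beside -0.05 over all rows tested. Over all 8 genes, 7 lay above the control and 1 below, with a median of 1.40. The counting interval lay above 0 for 6 of the 8, Mbp, Ncmap, Pmp22, S100b, Prx and Sox10, as it did for 22.1% of the 13026 rows with reads in both libraries. In bulk muscle, more Schwann cells in the piece that was taken and more of these transcripts per Schwann cell cannot be told apart.

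**Figure D2:**
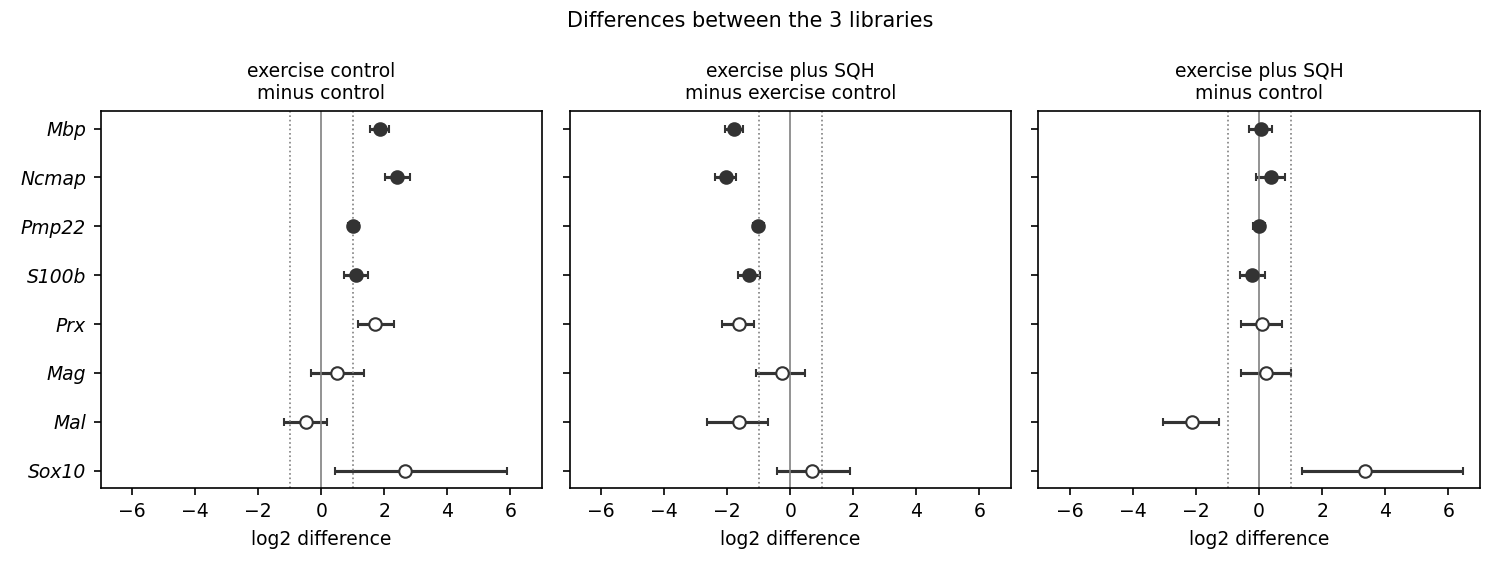
Log2 difference of each gene (x axis) for the 3 comparisons, first-named group minus second, with 95% counting intervals; filled points passed the minimum level and open points did not, and dotted lines mark 2-fold. Mbp, Ncmap, Pmp22, S100b and Prx lie past 2-fold in the first and second panels and near 0 in the third.

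The size of this difference varied among the genes. Of the 28 pairs among the 8, 12 had counting intervals that did not overlap, before any spread between mice. Ncmap (5.32-fold) and Mbp (3.60-fold) lay above Pmp22 (2.02-fold) and S100b (2.13-fold) with intervals apart. The interval of Mal lay below those of all others but Mag. The summed linear value of all 8 genes was 770 in exercise plus SQH, 1926 in the exercise control and 775 in the control. Pmp22 made up 52.2% of that sum in exercise plus SQH, 42.0% in the exercise control and 51.7% in the control. The share of Ncmap was 10.2%, 16.9% and 7.87% in the same order. Without Pmp22 the sum was 2.98-fold the control in the exercise control and 0.98-fold in exercise plus SQH.

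The comparison of exercise plus SQH with the exercise control addresses exercised muscle with and without the treatment. All 4 genes past the minimum were called lower in exercise plus SQH, where 2.33% of all rows were. Their median difference was -1.55, beside 0.03 over all rows tested. Of the 8 genes 7 lay below the exercise control, and Sox10 lay above it within counting error. The interval lay below 0 for 6 of the 8, Mbp, Ncmap, Pmp22, S100b, Prx and Mal, and for 22.8% of all rows with reads in both. This comparison shares the exercise control library with the one before it. The exercise control was at least 2-fold above both other libraries for all 4 tested genes, and for 75 of the 7857 rows (0.955%).

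**Figure D3:**
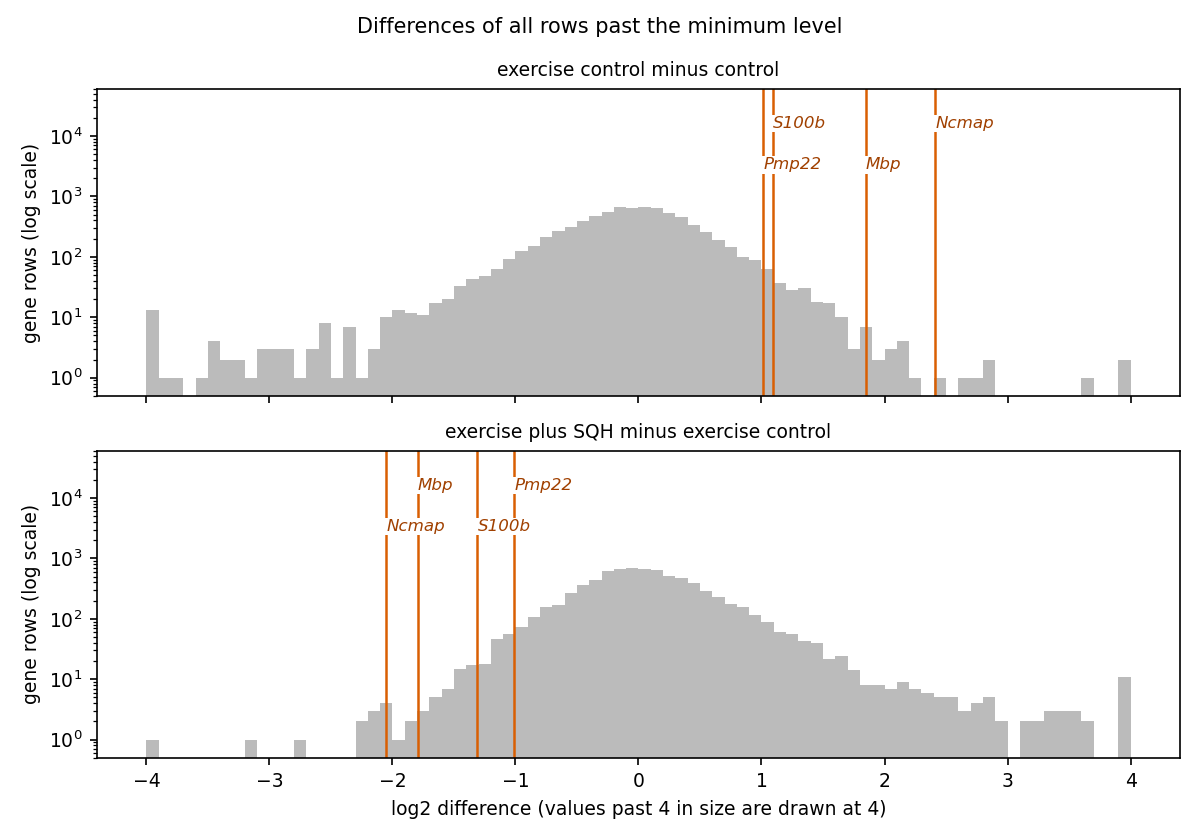
Number of gene rows (y axis, log scale) by log2 difference (x axis) among the 7857 rows past the minimum level; orange lines mark the 4 genes that passed it. All 4 lie in the upper tail for exercise control minus control and in the lower tail for exercise plus SQH minus exercise control.

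Exercise plus SQH against the control is the comparison without the exercise control library. None of the 4 tested genes was called (0 of 4, where 3.02% of all rows were called in either direction). The log2 differences were 0.05 [-0.30 to 0.42] for Mbp, 0.36 [-0.11 to 0.83] for Ncmap, 0.005 [-0.18 to 0.19] for Pmp22 and -0.22 [-0.62 to 0.20] for S100b. Prx (0.08 [-0.57 to 0.72]) and Mag (0.23 [-0.59 to 1.03]) also lay within counting error of 0. For Pmp22 the interval leaves room for a change of at most 1.14-fold upward, and for Ncmap of at most 1.78-fold, before any spread between mice. Mal lay below 0 by its interval, as did 22.5% of all rows with reads in both libraries, and Sox10 above 0, as did 22.4%. Both genes lie under the minimum. Without the minimum, 9.51% of the 15714 rows were past 2-fold lower and 11.9% past 2-fold higher in this comparison.

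A longer list of 20 myelin and junction genes of Schwann cells was examined beside these 8. Its 5 members past the minimum all lay above the control in the exercise control (median 0.69), and 1 was called higher (2.95% of all rows were). Drp2, whose protein binds periaxin, was lower in exercise plus SQH than in the exercise control (-1.06 [-1.42 to -0.70]), where 2.33% of all rows were called lower. It lay 0.69 [0.34 to 1.04] above the control in the exercise control. Of the 18 genes of this list with reads in both libraries, 15 lay above the control in the exercise control, 9 of them by more than counting error (22.1% of all rows with reads in both did so), and 0 of the 3 lower ones.

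Under the minimum, and picked out after their values were seen, Plekhb1 (1.61 [0.97 to 2.29]) and Gjb1 (2.58 [0.72 to 5.002]) lay above the control in the exercise control. Gjb1 encodes connexin 32, the gap junction protein of the myelin sheath, and gave about 14 reads in the exercise control and 3 in the control. Gldn, which encodes gliomedin of the node of Ranvier and was picked out in the same way, was level at 4.81 in exercise plus SQH, 4.88 in the exercise control and 4.77 in the control. The lists were drawn up with earlier results of these libraries known and are described only.

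**Figure D4:**
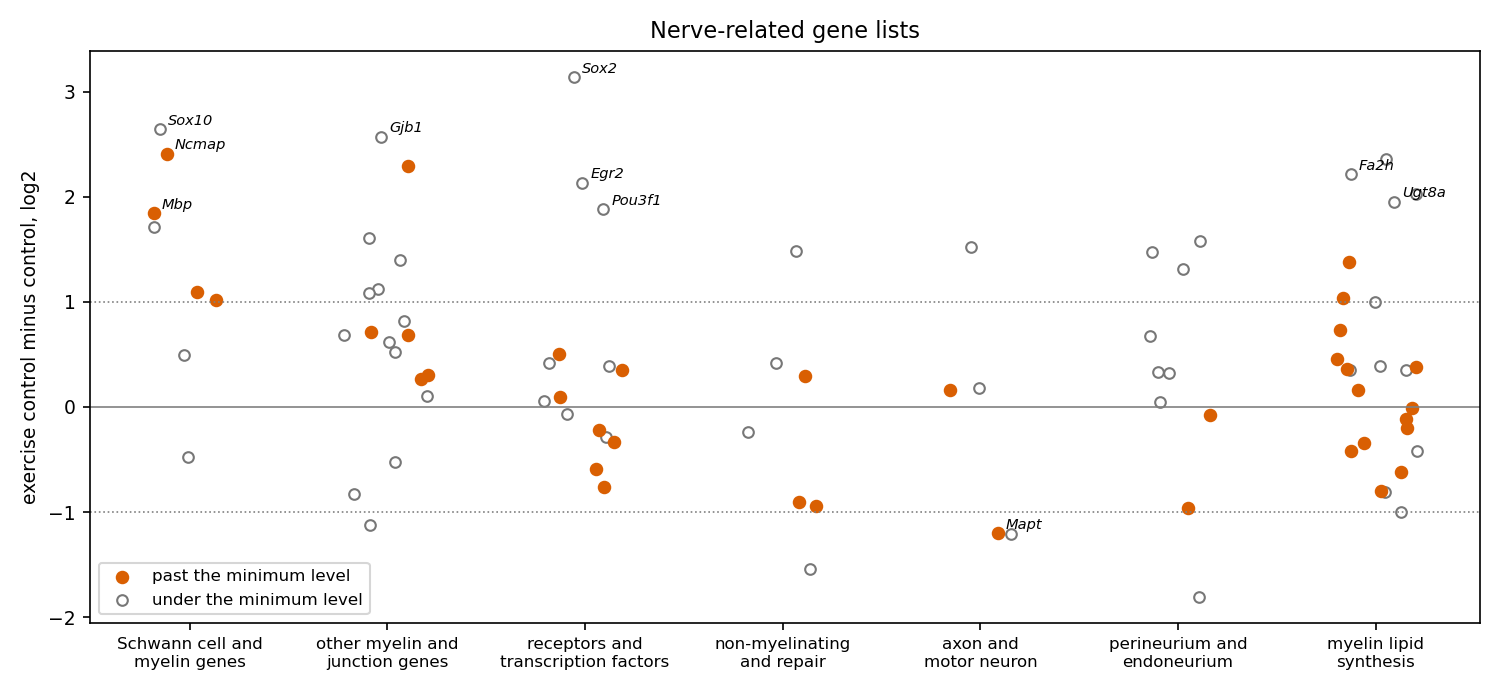
Log2 difference of exercise control minus control (y axis) for each gene of 7 nerve-related lists with reads in both libraries; filled points passed the minimum level, open points did not, and dotted lines mark 2-fold. Points are spread sideways only to be told apart, with Ncmap at 2.41, Mbp at 1.85 and Mapt at -1.20 among the labelled filled points.

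The other nerve lists were described in the same way, and no difference between lists was tested. In the 15 Schwann cell receptors and transcription factors, 7 passed the minimum and none was called in any comparison. Of all rows, 2.95% were called higher and 5.33% lower in exercise control against control. The shares were 5.68% and 2.33% in exercise plus SQH against exercise control, and 1.76% and 1.26% in exercise plus SQH against control. With so few genes tested, a lack of calls says little. The median of the 7 was -0.22 in the exercise control against the control, with Itga6, a laminin receptor subunit, at -0.76 and Tead1 at -0.59. Both are also made outside nerve. Under the minimum, and picked out after their values were seen, the transcription factor genes Pou3f1 (1.89 [1.28 to 2.54], about 88 against 30 reads) and Sox2 (3.14 [1.02 to 6.33], about 14 against 2 reads) lay above the control in the exercise control. Of the 15 genes, 4 had a counting interval above 0 there and 3 below. The interval lay above 0 for 22.1% of all rows with reads in both libraries, a share near that of this list. The non-myelinating and repair list had 3 tested genes and no call, which says as little. Ncam1, the neural cell adhesion molecule, stood at 6.94 in exercise plus SQH, 6.42 in the exercise control and 7.33 in the control, and Bdnf at 8.79, 7.91 and 8.85 in the same order. Jun, the other tested gene, lay above the control in the exercise control (0.30 [0.22 to 0.37]). Of 7 genes with reads in both of these libraries, 1 had a counting interval above 0 and 3 below. Which cells gave these transcripts was not tested. Scn7a, a sodium channel gene of non-myelinating Schwann cells, lay just under the minimum and within counting error of the control in the exercise control (6.37 against 5.95, about 70 and 66 reads). In exercise plus SQH it lay below the exercise control (-0.66 [-1.18 to -0.17]). Of 9 genes of its list with reads in both libraries there, 3 had a counting interval above 0 and 1 below. Scn7a was picked out after its values were seen.

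The axon list covers neuron transcripts, whose cell bodies lie outside the muscle. Chat, Slc5a7, Slc18a3, Nefl and Ina were listed at 0 in all 3 libraries. Mapt, the tau gene, which muscle fibres transcribe too, was called lower in exercise control than in control muscle (-1.20 [-1.31 to -1.09]). Of all rows, 5.33% were called lower there. Stmn2 was level at 6.41, 6.42 and 6.25 in exercise plus SQH, exercise control and control. Prph, the gene of the neurofilament-like protein peripherin, lay under the minimum, at 4.88, 5.82 and 4.30 in the same order. It lay above the control in the exercise control (1.52 [0.76 to 2.35]) and below the exercise control in exercise plus SQH (-0.94 [-1.62 to -0.33]), and was picked out after its values were seen. Of 7 axon genes with reads in both libraries of the latter comparison, Prph was the 1 with a counting interval below 0 (22.8% of all rows). The interval lay above 0 for 3, Mapt (0.89), Uchl1 (1.06 [0.42 to 1.74]) and Snap25 (2.62 [0.56 to 5.76]). Uchl1 and Snap25 lie under the minimum, with about 87 against 27 and 19 against 2 reads. Of 10 perineurium and endoneurium genes 2 passed the minimum. Sox9 was called higher in exercise plus SQH than in the exercise control (1.36 [1.17 to 1.56]), as were 5.68% of all rows, and Cldn1, a tight junction gene of the perineurium, was level (0.13 [-0.15 to 0.41]). Under the minimum, and picked out after their values were seen, the fibroblast genes Abca9 (1.58 [0.84 to 2.37]) and Osr2 (1.47 [0.58 to 2.42]) lay above the control in the exercise control. Sox9 lay below the control there (-0.96 [-1.17 to -0.76]), and Cldn1 was level (-0.08 [-0.38 to 0.21]). Of the 10 genes, 2 had a counting interval above 0 in that comparison and 1 below. Over all rows with reads in both libraries, the interval lay above 0 for 22.1%. In exercise plus SQH against exercise control, 9 genes of this list had reads in both libraries. Of these, 4 had a counting interval below 0 (22.8% of all rows with reads in both did so) and 3 above.

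Myelin is rich in cholesterol and galactolipids, whose synthesis genes also serve other cells. The median difference of the 14 tested genes of the lipid list was 0.08 between exercise control and control muscle. Of them, 2 were called higher in the exercise control (2.95% of all rows were) and none lower (5.33% were). Scd2, a stearoyl-CoA desaturase and 1 of the 2 called higher, differed by 1.04 [0.82 to 1.26]. Exercise plus SQH was lower than the exercise control in Sc5d (-1.94 [-2.34 to -1.57]), where 2.33% of all rows were called lower. It was higher in Scd1 (1.12 [0.84 to 1.41]), where 5.68% were called higher. Against the control, exercise plus SQH was higher in Fdft1 (1.07 [0.81 to 1.33]), where 1.76% of all rows were called higher, and lower in Sc5d (-1.49 [-1.89 to -1.11]), where 1.26% were called lower. Ugt8a, which makes the galactolipid galactosylceramide, lay under the minimum with about 19, 52 and 17 reads in exercise plus SQH, exercise control and control. It too was picked out after its values were seen.

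Markers of other cell and fibre types differed between the same libraries, and their part in the results above was not tested. The 10 slow-fibre genes summed to linear values of 435057, 46958 and 550371 in exercise plus SQH, exercise control and control, and 9 were called lower in exercise control than in control muscle (5.33% of all rows were). In exercise plus SQH against exercise control 9 were called higher (5.68% of all rows were). Of 11 fast-fibre genes, whose sums were 570444, 868017 and 656612, none was called between exercise control and control. Of all rows, 2.95% were called higher there and 5.33% lower. Myh4 (-1.16) and Atp2a1 (-1.01) were called lower in exercise plus SQH than in the exercise control (2.33% of all rows were). The general muscle markers had no call in any comparison, where from 1.26% to 5.68% of all rows were called in a given direction. Of 12 genes of the fibre's side of the neuromuscular junction, 6 were tested. Chrna1, the acetylcholine receptor alpha subunit, was called lower in exercise control than in control muscle (8.66 against 10.17), as were 5.33% of all rows. It was called higher in exercise plus SQH than in the exercise control, as was Lrp4, a receptor subunit for agrin (7.59 against 5.86). Of all rows, 5.68% were called higher there. Musk was called higher in exercise plus SQH than in the control (7.73 against 6.69), as were 1.76% of all rows.

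Among cell types that also transcribe some of the 8 genes, fibroblast markers summed to linear values of 7943, 10012 and 7136 in exercise plus SQH, exercise control and control. Col1a1 was the 1 of 7 tested fibroblast genes called between exercise control and control (1.28, where 2.95% of all rows were called higher). The 9 adipocyte markers summed to 5205, 3522 and 4205 in the same order. Adipoq stood at 6.09, 3.83 and 6.08, and Cidec at 5.09, a listed 0 and 4.08, both picked out after their values were seen. Of the 3 tested adipocyte genes, Cfd (-0.02 [-0.51 to 0.47]) and Fabp4 (-0.21 [-0.28 to -0.14]) differed little between exercise control and control. The part of adipocytes in the S100b difference was not tested. Cidea was called lower in exercise control than in control muscle (-1.68), as were 5.33% of all rows. Cidea (2.39) and Cfd (1.25) were called higher in exercise plus SQH than in the exercise control, as were 5.68% of all rows. Endothelial markers summed to 3523, 4056 and 3689. Robo4 was called lower in exercise control than in control muscle (-1.62), as were 5.33% of all rows. Of the 8 endothelial genes, 4 had a counting interval above 0 in that comparison and 2 below. Over all rows with reads in both libraries, the interval lay above 0 for 22.1%. Macrophage markers summed to 559, 299 and 355. Melanocyte markers summed to 298, 296 and 305, with Mitf, which muscle transcribes, at log2 values of 8.03, 8.09 and 7.90, and oligodendrocyte markers to 54.7, 46.4 and 38.5, nearly all from Aspa.

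Genes outside the list were ranked by how closely their values, each centred on its own mean over the 3 libraries, matched the median profile of the 4 tested genes. The measure was the Euclidean distance over 3 libraries, and the median distance of the 7518 rows ranked was 1.30. Among the 10 closest were Nrbf2 (0.06), Slc43a1 (0.12), Kcnc1 (0.15) and Zfp110 (0.18), and Il15, Apbb3, Phkb, H1fx and Dyrk2 at up to 0.22. Mbp itself lay at 0.26, S100b at 0.28, Pmp22 at 0.42 and Ncmap at 0.65. These 4 genes made the profile. Of the genes that did not, Prx lay at 0.16 with 4 ranked rows closer, and Mag at 0.95 with 1049 closer. Mal (1.65) and Sox10 (2.44) lay further off than the median of the rows ranked. None of the 10 is on the myelin lists.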

How the data were processed

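Lexogen QuantSeq 3′ libraries were made from 500 ng of Trizol-extracted muscle RNA, per the labels' protocols. Bowtie2, edgeR and the build mm10 are named in the submitters' processing notes without versions or roles. How reads were counted and filtered, with which annotation and strand setting, is not given in the sources used here. Per the file headers each deposited file holds 1 library and a sample code. The headers name no unit, and the deposited values were read as log2 levels from their pattern, since linear values up to 9 bunch at whole multiples of a step (0.766 in exercise plus SQH, 1.19 in the exercise control, 0.939 in the control). Within 0.2 step of a multiple lay 84.4%, 95.7% and 100.0% of them, so reads, taken as linear value over step, are approximate and no count model was fitted. Depth came to 12.4, 8.12 and 10.8 M reads, so low genes are measured least well in the exercise control. Groups come from sample titles, 1 library each.

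The plan allowed for read counts or normalized values. As the files hold log2 values, calls rest on size alone. Counting intervals of reads are exact Poisson intervals, and those of differences are exact binomial (Clopper-Pearson) intervals of the share of reads. The 8 genes and the 17 further lists (194 genes, all found) were chosen with earlier results of these data known. Named were all 8 genes and, per list, called genes up to 4, or up to 2 with the largest difference, plus markers at 0 and the 10 closest profiles. Other genes named were picked after their values were seen. The scripts (Python 3.11.15, numpy 2.4.6, pandas 2.3.3, scipy 1.17.1, matplotlib 3.10.9) were tested on simulated data. Values of a few genes named by that rule are left out of the text.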

Additional observations from a re-analysis of the deposited data

How the results depend on the processing

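The 3 counts of called genes were recomputed under 8 alternatives each and the 3 medians under 4 each. All 12 medians moved by less than counting error, and they lay between 1.39 and 1.54 for exercise control against control. Of the 24 counts 19 stayed within 1.5 times. With the minimum at the upper quartile Pmp22 alone was tested, and the count was 1 in exercise plus SQH against exercise control and 1 in exercise control against control. At 3-fold it was 2 in each, Mbp and Ncmap. With no minimum it was 2 in exercise plus SQH against control, Mal lower and Sox10 higher. Of the 96 single differences 1 moved by more than counting error, Sox10 in exercise plus SQH against control, from 3.35 to 1.29 with 10 added to the linear values. Pmp22 in that comparison changed sign under quantile normalization, at 0.005 and -0.005. Over all rows, centring moved the calls of exercise control against control from 232 higher and 419 lower to 293 and 348, and those of exercise plus SQH against exercise control from 446 and 183 to 375 and 236. Scaling without Rn45s, the ribosomal precursor, moved those of exercise plus SQH against control from 138 and 99 to 167 and 75. No paired analysis was possible because each group has 1 library. Neither comparison with the exercise control can be made without that library. Depth limits Mag, Mal and Sox10, at 53 reads or fewer per library.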
